A study of Mus musculus with 59 samples.

Results

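The cadherins and protocadherins of the mouse brain were followed across 3 brain regions and 2 treatments. Members were all measured genes whose symbol is Cdh followed by a number or starts with Pcdh, which gave 92 of the 21935 Ensembl gene IDs in the count table. They comprised 23 cadherins and 69 protocadherins, of which 57 belong to the alpha, beta and gamma clusters and 12 lie elsewhere. The members sit on 11 chromosomes, with 60 of them on chromosome 18, and the symbol Pcdha11 is carried by 2 IDs (ENSMUSG00000007440 and ENSMUSG00000102206). All 92 had at least 1 read in some library.

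The series title concerns co-agonism at PYY and GLP-1 receptors, which bind gut hormones that curb appetite, in obese-diabetic mice, and the labels name the strain C57BL/6 alone. Brains were taken 4 h after intraperitoneal injection of the peptide combination IP118/PY115 or of vehicle. From frozen brains cut at 10 µm, 4 mm² of each region was collected by laser capture, and polyA RNA was sequenced with a strand-specific mRNA kit. The hypothalamic regions were the paraventricular nucleus (PVN) and the arcuate nucleus (ARC), and the hindbrain region was the solitary tract nucleus (NTS), with 10 IP118/PY115 and 10 vehicle libraries in PVN, 10 and 9 in ARC, and 10 and 10 in NTS. Every library therefore came from C57BL/6 tissue taken 4 h after an injection, and the vehicle libraries are the background for the peptide values.

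Cadherins are calcium-dependent adhesion proteins that join neighbouring cells through like-to-like binding of their extracellular repeats. Classical cadherins connect to the actin cytoskeleton through catenins, and their combinations mark nuclei, layers and synapses of the brain. Non-clustered delta protocadherins bind more weakly and act on cell sorting, axon growth and synapses. The clustered protocadherins are built from alternative first exons, joined in the alpha and gamma clusters to shared constant exons, and give single neurons different surface identities.

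Total counts ran from 3964093 to 16244376 in PVN libraries, from 4546257 to 14476523 in ARC libraries and from 6677086 to 28510118 in NTS libraries, and members took 0.169 to 0.273% of a library. Region labels were checked with marker genes. The summed level of Avp, Oxt, Crh, Trh and Sim1 was at least 8646 CPM (counts scaled to a common library size) in PVN libraries and at most 473 CPM elsewhere. That of Agrp, Npy, Pomc, Ghrh and Tbx3 was at least 1575 CPM in ARC libraries and at most 71.8 CPM elsewhere. The hindbrain gene Hoxb5 was at least 246 CPM in NTS libraries and at most 0.0882 CPM elsewhere. The lowest ARC sum belonged to IP118/PY115 ARC replicate 2, which also held 6085 CPM of 11 mature oligodendrocyte markers, against at most 2178 CPM in the other ARC libraries. Earlier results of these data placed the libraries numbered 1 (replicate 1 of each group) in every region with the other treatment. Treatment results of members in PVN and ARC are therefore also given without them. In NTS the fit without them called 1.18% of all genes. Those libraries were picked from the outcome, and p-values without them are too small.

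A set of 4 NTS libraries stood apart from the other 16 NTS libraries in the gamma cluster. IP118/PY115 replicates 7 and 8 held summed gamma levels of 110 and 87.3 CPM and vehicle replicates 7 and 8 held 87.8 and 160 CPM, against 209 to 293 CPM in the others. These libraries carry the consecutive numbers 5738 to 5741 in the labels. All 4 lay below all 16 others in 11 of the 21 gamma members, 1 of the 12 tested alpha members, none of the 21 tested beta members and 2 of the 30 tested cadherins and non-clustered protocadherins. The gamma count follows in part from how the 4 were picked. The share of all genes in which they lay below the others was not computed, so these counts are a description. Their alpha sums of 23.3 to 33.6 CPM also lay below the 44.5 to 62.2 CPM of the others, while their beta sums of 128 to 139 CPM lay within the range of 125 to 160 CPM. Results for the clusters are therefore given with and without these 4 libraries, a choice made after seeing the data. Since the 4 were picked for low gamma levels, gamma p-values without them are too small. Gamma calls without them are a description.

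The most abundant members were protocadherins outside the clusters. Levels of different genes were compared per kilobase of exon not shared with another gene, as a mean over both treatments of a region. In PVN, Pcdh17 ranked first at 26.2 CPM per kilobase and Pcdh9 second at 23.8. In ARC, Pcdh7 ranked first at 29.2 and Pcdh20 second at 24.9, and in NTS Pcdh9 at 19.6 was followed by Cdh2 at 17.8. Cdh2, or N-cadherin, the main classical cadherin of neurons, stood at 16.3 CPM per kilobase of exon in PVN and at 15.7 in ARC. The type II cadherin Cdh22 was among the first 4 members in every region, at 18.7 in PVN, 19.2 in ARC and 15.1 CPM per kilobase in NTS. At the other end, the epithelial cadherin Cdh1, the kidney cadherin Cdh16, the intestinal cadherin Cdh17, Cdh26 and Pcdha4 were too low for any test between regions. Cdh1 had 2 counts over the IP118/PY115 and 10 over the vehicle libraries of PVN, 44 and 78 in ARC, and 27 and 19 in NTS. In the fits of treatment within a region, 9 members in PVN, 9 in ARC and 8 in NTS failed the filter on low counts.

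**Figure D1:**
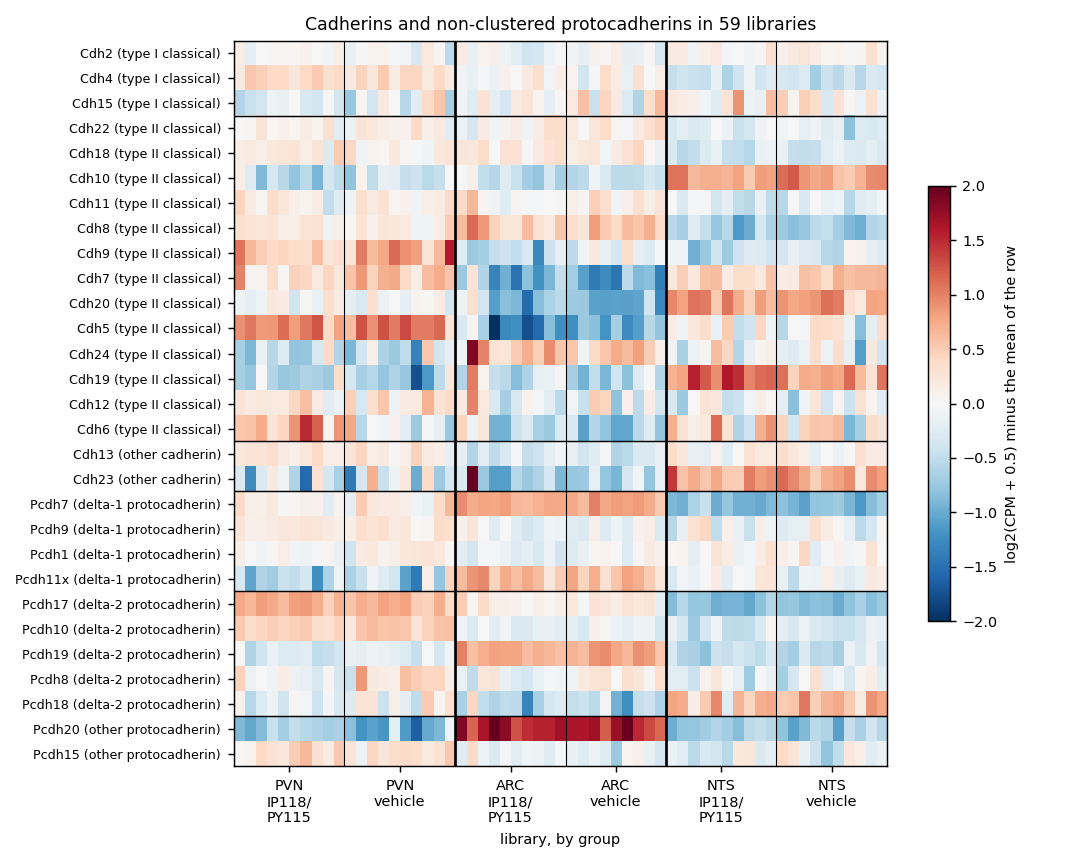
Level of each cadherin and non-clustered protocadherin with at least 1000 counts in all, in every library. Colour is log2(CPM + 0.5) minus the gene's mean, held at 2 and -2 at the ends of the scale, and columns are libraries by group; Pcdh20, Pcdh19 and Pcdh7 are high across ARC, Cdh5 across PVN, and Cdh10, Cdh19 and Cdh20 across NTS.

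The first question was which members changed 4 h after IP118/PY115. In PVN 1 member rose, the type II cadherin Cdh6, known from developing kidney and from brain boundaries, and no member fell, of 83 tested (edgeR quasi-likelihood test, Benjamini-Hochberg adjusted p, or FDR, under 0.05). That is 1.2% of the members, beside 0.656% of all genes tested, 0.529% higher and 0.127% lower. In ARC 0 of 83 members passed, beside 0.0% of all genes, and in NTS 0 of 84, beside 0.0%. At an unadjusted p under 0.05 there were 6 members in PVN, 6 in ARC and 4 in NTS, beside 9.34, 7.2 and 5.8% of all genes. DESeq2 called 1 member in PVN, 0 in ARC and 0 in NTS, beside 1.56, 0.438 and 0.482% of all genes. Median log2 fold changes of the members were -0.03 in PVN, -0.05 in ARC and -0.04 in NTS, where all genes stood at -0.02, 0.00 and 0.00. The labels do not say which libraries came from the same animal, so these p-values measure the spread between libraries.

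Cdh6 (ENSMUSG00000039385) lies on the minus strand of chromosome 15 at 13028701 to 13173675 (GRCm38). In PVN its lowest, median and highest levels were 5.61, 8.79 and 16 CPM in IP118/PY115 libraries, against 2.99, 4.96 and 9.57 CPM in vehicle libraries. The groups overlapped, since the highest vehicle library, replicate 1, lay above the IP118/PY115 median, but every IP118/PY115 library lay above the vehicle median. The log2 fold change was 0.89 ± 0.20 (SE; FDR = 0.0299). The call was lost with log10 library total as a covariate (0.81, FDR = 0.126), with an oligodendrocyte score as a covariate (0.81, FDR = 0.146) and without the vehicle libraries whose labels carry the numbers 5553 to 5557, in PVN replicates 8, 9 and 10 (0.79, FDR = 0.143). With the oligodendrocyte score 0.0597% of all genes were called in PVN, against 0.656% in the main fit. Over 20 fits that left out 1 library each, the fold change ran from 0.79 to 1.08 and FDR from 0.00121 to 0.0823, and 11 of them lost the call. Those were the fits without IP118/PY115 replicate 3, 6, 7, 8 or 10 and without vehicle replicate 2, 3, 4, 6, 8 or 9. Without vehicle replicate 1 or without IP118/PY115 replicate 1, 2 members were called, Cdh6 with Pcdh8 and Cdh6 with Cdh7. Leaving out both libraries numbered 1 gave 1.11 ± 0.18 (FDR = 0.000403).

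In the other regions Cdh6 did not pass. In ARC it stood at 2.55, 4.09 and 7.44 CPM in IP118/PY115 libraries (lowest, median and highest), against 2.26, 2.89 and 4.49 CPM in vehicle libraries (log2 fold change 0.42 ± 0.22, FDR = 0.716). In NTS it stood at 3.35, 6.76 and 12.2 CPM, against 2.64, 7.24 and 8.75 CPM in vehicle libraries (0.21 ± 0.22, FDR = 0.999). The groups overlapped in both regions. The difference of the PVN effect from the ARC effect was 0.48 ± 0.32 (p = 0.139, FDR = 0.881), and from the NTS effect 0.68 ± 0.30 (p = 0.0261, FDR = 1.0), so the fold change was not shown to differ between regions.

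The promoter of Cdh6 is shown because it is the single member called for treatment. The 250 bases before its start (RefSeq, GRCm38.p6, chr15:13173676-13173925, minus strand) are printed with a pair of overlapping GC boxes in capitals, the first base at position -84 from the start:
Cdh6: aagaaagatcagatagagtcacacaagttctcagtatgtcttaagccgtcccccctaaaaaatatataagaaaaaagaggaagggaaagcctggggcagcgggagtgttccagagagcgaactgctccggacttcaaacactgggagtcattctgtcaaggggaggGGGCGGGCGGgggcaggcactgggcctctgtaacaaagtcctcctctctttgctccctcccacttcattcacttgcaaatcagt
The window was searched on both strands for the GC box GGGCGG, the TATA box TATAAA, the cAMP response element TGACGTCA, the AP-1 site TGANTCA, the glucocorticoid receptor motif AGAACA and the E-box CACGTG, and only the GC box was found. Of 32851 promoter windows of the same length, 32.7% held a GC box, 12.4% a TATA box, 1.55% a cAMP response element, 6.75% an AP-1 site, 16.1% a glucocorticoid receptor motif and 6.02% an E-box. The overlapping GC boxes share bases and were counted as separate matches.

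Other members of small p did not pass. Pcdh8, or arcadlin, an activity-regulated delta-2 protocadherin that acts on N-cadherin at synapses, stood at 27.8, 33 and 48.9 CPM in PVN IP118/PY115 libraries, against 25.8, 43.6 and 65.0 CPM in vehicle libraries (lowest, median and highest). Its log2 fold change was -0.36 ± 0.13 in PVN (FDR = 0.258), -0.29 ± 0.09 in ARC (FDR = 0.251) and -0.03 ± 0.11 in NTS (FDR = 0.999). The type II cadherin Cdh9, known for synapses of hippocampal mossy fibres, stood at 9.30, 17 and 20.9 CPM in ARC IP118/PY115 libraries, against 16.2, 21.2 and 30.3 CPM in vehicle libraries. Its log2 fold change was -0.42 ± 0.12 in ARC (FDR = 0.251), -0.35 ± 0.14 in PVN (FDR = 0.344) and -0.18 ± 0.11 in NTS (FDR = 0.999). The groups of both genes overlapped in every region. Leaving out the libraries numbered 1 gave 5 called members in PVN, with Cdh6 higher and Pcdh8, Cdh9, Pcdh1 and Cdh7 lower, where 3.22% of all genes were called. The same step gave 1 in ARC, Cdh9 at -0.50 ± 0.12 (FDR = 0.0367), where 1.14% of all genes were called.

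Pcdh1, a delta-1 protocadherin, had a log2 fold change of -0.18 ± 0.06 in ARC (FDR = 0.427), -0.12 ± 0.06 in PVN (FDR = 0.611) and -0.01 ± 0.07 in NTS (FDR = 0.999). The other ARC members at an unadjusted p under 0.05 were clustered, namely Pcdhga7 at -0.32 ± 0.14, Pcdhb17 at -0.23 ± 0.11 and Pcdhb19 at -0.46 ± 0.21. In NTS the smallest p belonged to the type II cadherin Cdh19, which stood at 11.1, 15.3 and 21.1 CPM in IP118/PY115 libraries, against 8.26, 11.6 and 15.2 CPM in vehicle libraries (0.40 ± 0.13, FDR = 0.357). The sum of 11 mature oligodendrocyte markers had medians of 5088 CPM in IP118/PY115 NTS libraries and 5545 CPM in vehicle NTS libraries. Of these 11 markers, 10 had a positive and 1 a negative log2 fold change in NTS, with a median of 0.22, and none passed. The part of oligodendrocyte content in the Cdh19 value was not tested. Next in NTS came Pcdhb20 at -0.22 ± 0.09, Pcdhb11 at 0.39 ± 0.19, Pcdhb18 at -0.27 ± 0.13, Pcdha6 at -0.48 ± 0.25 and Pcdhb7 at 0.26 ± 0.14, none of which passed. Leaving out the 4 libraries low in gamma members also gave 0 called members in NTS.

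**Figure D2:**
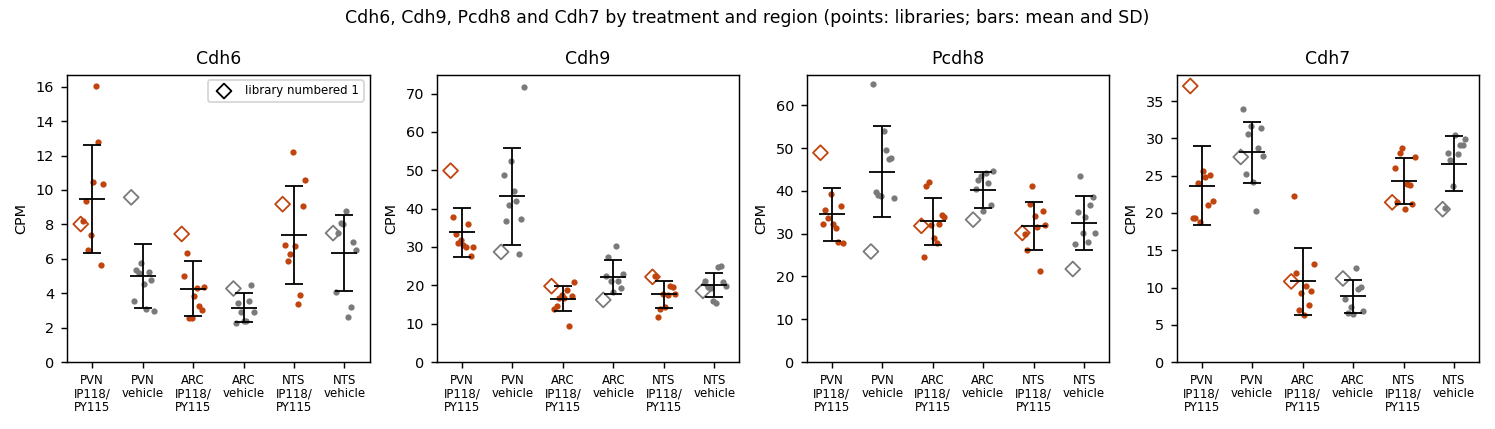
CPM of Cdh6, Cdh9, Pcdh8 and Cdh7 in every library, by region and treatment, with mean and SD; diamonds are the libraries numbered 1. In PVN the Cdh6 points of IP118/PY115 libraries lie mostly above those of vehicle libraries, where the vehicle diamond at 9.57 CPM is the highest, and the groups overlap for the other genes.

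The treatment effect was also compared between regions, and 0 of 87 members passed in each of the 3 comparisons. Among all genes 0.0487% passed for PVN over ARC (0.0417% higher, 0.00695% lower), 0.0904% for PVN over NTS (0.0835% higher, 0.00695% lower) and 0.0% for ARC over NTS, and 6, 6 and 4 members had an unadjusted p under 0.05, beside 6.21, 4.28 and 3.76% of all genes. The smallest p for PVN over ARC belonged to Cdh3, or P-cadherin (p = 0.000379, FDR = 0.182), which had 48 counts in 10 IP118/PY115 PVN libraries, against 9 counts in 10 vehicle PVN libraries, and 0 counts in 10 IP118/PY115 ARC libraries, against 7 counts in 9 vehicle ARC libraries. At such counts no fold is given, and Cdh3 entered these comparisons only because its NTS counts passed the filter. Pcdhb17 and Pcdhb8 followed, with differences in log2 fold change of 0.41 ± 0.14 (FDR = 0.522) and -0.60 ± 0.22 (FDR = 0.621). For PVN over NTS the smallest p belonged to Pcdhb8 at -0.62 ± 0.21 (FDR = 0.665), Pcdhb11 at -0.68 ± 0.25 (FDR = 0.710) and Cdh3 (FDR = 0.936). For ARC over NTS they were Cdh3 (FDR = 0.952), Pcdhb7 at -0.55 ± 0.21 (FDR = 1.0) and Pcdhb20 at 0.35 ± 0.16 (FDR = 1.0).

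The regions themselves differed widely in their members, and these differences are given for vehicle mice first. Of 87 tested members, 39 differed between PVN and ARC (23 higher in PVN, 16 lower), beside 46% of all genes (24.8% higher, 21.1% lower). Between PVN and NTS 46 differed (25 higher, 21 lower), beside 56.1% (28.3% higher, 27.8% lower). Between ARC and NTS 44 differed (20 higher, 24 lower), beside 61.7% (30.2% higher, 31.5% lower). The members' shares of 44.8, 52.9 and 50.6% were below those of all genes. In all 68 members differed in at least 1 contrast and 19 in none. The matching share of all genes was not computed, so this count is not read as a trait of the members. Outside the clusters 61.3, 74.2 and 74.2% of 31 tested members were called, and within them 35.7, 41.1 and 37.5% of 56. Cdh3 and Pcdha1 reached the filter on low counts only through NTS, Pcdhb1 only through ARC and Pcdh12 only through PVN, and without these 4 the counts were 37, 43 and 41 of 83. Per the labels tissue of all 3 regions was taken from the animals, but which libraries share an animal is not stated, so region contrasts treat libraries as independent. In bulk tissue, fewer cells of a type and less RNA per cell cannot be told apart.

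Groups of vehicle libraries that did not overlap had shares among the members close to or below those among all genes. They numbered 8 of 87 members between PVN and ARC (9.2%, against 11.6% of all genes), 12 between PVN and NTS (13.8%, against 13.2%) and 16 between ARC and NTS (18.4%, against 22.6%). The 87 include Cdh3, Pcdha1, Pcdhb1 and Pcdh12, which reached the filter on low counts only through a single region. Cdh3 is counted in both contrasts with NTS, and counts without these genes were not made. Scaling by library totals alone left the PVN over ARC calls at 18 higher and 19 lower. That scaling moved all genes the same way, from 3572 higher and 3038 lower to 2849 higher and 4006 lower. With an oligodendrocyte marker score as a covariate, the ARC over NTS calls became 20 higher and 8 lower, 28 in all, and the PVN over NTS calls 23 higher and 10 lower. With that covariate 38.3% of all genes were called for ARC over NTS and 45.2% for PVN over NTS. The sum of 11 mature oligodendrocyte markers had vehicle medians of 1057 CPM in PVN libraries, 821 CPM in ARC libraries and 5545 CPM in NTS libraries, and all 11 were lower in PVN and in ARC than in NTS.

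Pcdh20, a non-clustered protocadherin outside the delta families, was the member of largest difference on the ARC side in both contrasts that involve ARC. Its lowest, median and highest levels were 14, 21.5 and 42 CPM in vehicle PVN libraries, 99.9, 138 and 177 CPM in ARC libraries and 20.7, 28.8 and 34.2 CPM in NTS libraries. Every ARC library lay above every PVN and NTS library. Log2 differences were -2.42 ± 0.14 for PVN over ARC (FDR = 4.21e-23) and 2.27 ± 0.13 for ARC over NTS (FDR = 1.64e-22), and PVN and NTS did not differ detectably (-0.15 ± 0.13, FDR = 0.338). Pcdh19, the X-linked delta-2 protocadherin that pairs with N-cadherin, was also highest in ARC. It stood at 66.1, 81.7 and 91.5 CPM in PVN libraries, 134, 155 and 174 CPM in ARC libraries and 56.7, 67.5 and 86.0 CPM in NTS libraries. Its PVN and NTS libraries lay apart from its ARC libraries (-0.95 ± 0.07 for PVN over ARC, 1.17 ± 0.07 for ARC over NTS) and overlapped each other (0.22 ± 0.07, FDR = 0.009).

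Pcdh20 had the largest differences in favour of ARC and Pcdh17, described next, was the most abundant PVN member per length, so their promoters are set side by side with that of Cdh10, a gene highest in NTS. Each is the 250 bases before the RefSeq start on GRCm38.p6 with CpG dinucleotides in capitals, from chr14:88471397-88471646 (minus strand), chr14:84443313-84443562 (plus strand) and chr15:18820079-18820328 (plus strand):
Pcdh20: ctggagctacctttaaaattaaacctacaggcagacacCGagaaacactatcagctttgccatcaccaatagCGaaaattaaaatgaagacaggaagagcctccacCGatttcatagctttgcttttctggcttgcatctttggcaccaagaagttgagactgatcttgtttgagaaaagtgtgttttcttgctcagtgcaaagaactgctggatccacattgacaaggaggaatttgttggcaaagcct
Pcdh17: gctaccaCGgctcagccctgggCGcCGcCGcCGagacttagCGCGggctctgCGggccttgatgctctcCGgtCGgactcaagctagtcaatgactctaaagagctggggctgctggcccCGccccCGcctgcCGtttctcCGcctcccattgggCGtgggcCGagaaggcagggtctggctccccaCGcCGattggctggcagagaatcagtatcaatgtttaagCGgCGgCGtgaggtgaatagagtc
Cdh10: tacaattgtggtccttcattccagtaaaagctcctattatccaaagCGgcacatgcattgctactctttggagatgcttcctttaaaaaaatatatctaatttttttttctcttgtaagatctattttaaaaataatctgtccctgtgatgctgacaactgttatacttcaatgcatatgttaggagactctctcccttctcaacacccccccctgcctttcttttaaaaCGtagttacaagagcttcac
The windows of Pcdh20, Pcdh17 and Cdh10 held 3, 21 and 2 CpG dinucleotides, where all 32851 windows had a median of 6 with quartiles of 2 and 16. The Pcdh20 and Cdh10 windows thus lay below the median and the Pcdh17 window above the upper quartile. These counts describe the reference sequence and say nothing of methylation in the tissue.

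Among delta-2 protocadherins, which bind the WAVE complex of actin regulators, Pcdh17 declined from PVN through ARC to NTS in vehicle mice. It stood at 273, 341 and 370 CPM in PVN libraries, 185, 246 and 258 CPM in ARC libraries and 106, 121 and 135 CPM in NTS libraries, with no overlap between any pair of regions. Log2 differences were 0.48 ± 0.07 for PVN over ARC (FDR = 5.34e-09), 1.46 ± 0.06 for PVN over NTS (FDR = 1.59e-29) and 0.98 ± 0.07 for ARC over NTS (FDR = 8.01e-21). Pcdh10, a delta-2 member that steers growing axons, stood at 247, 314 and 334 CPM in PVN libraries, 163, 197 and 231 CPM in ARC libraries and 157, 174 and 198 CPM in NTS libraries. PVN lay above the other regions without overlap (0.63 ± 0.07 over ARC, 0.77 ± 0.07 over NTS), and ARC and NTS overlapped (0.14 ± 0.07, FDR = 0.0654). Pcdh18 was highest in NTS, with 8.91, 13.8 and 18.9 CPM in PVN libraries, 5.26, 9.17 and 12.4 CPM in ARC libraries and 14.7, 20.2 and 27.5 CPM in NTS libraries, and it was higher in PVN than in ARC (0.59 ± 0.15) and lower in ARC than in NTS by a log2 difference of -1.23 ± 0.15. Its PVN over NTS value was -0.65 ± 0.14, and -0.37 (FDR = 0.0759) with the oligodendrocyte score as a covariate. Pcdh8 was higher in PVN than in NTS (0.44 ± 0.11, FDR = 0.000783) and higher in ARC than in NTS (0.30 ± 0.12, FDR = 0.0208).

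The delta-1 protocadherins, whose tails bind protein phosphatase, differed from each other in regional order. Pcdh7 stood at 160, 205 and 283 CPM in vehicle PVN libraries, 261, 309 and 364 CPM in ARC libraries and 81.5, 101 and 112 CPM in NTS libraries. Only PVN and ARC overlapped (-0.57 ± 0.08), and both were higher than NTS (1.07 ± 0.08 and 1.64 ± 0.08). The X-linked gene Pcdh11x stood at 13.5, 27.6 and 50.1 CPM in PVN libraries, 43.1, 54.4 and 64.2 CPM in ARC libraries and 25.4, 33.7 and 41.9 CPM in NTS libraries. It was lower in PVN than in ARC (-0.97 ± 0.14) and higher in ARC than in NTS (0.67 ± 0.14), and PVN over NTS did not pass (-0.30 ± 0.14, FDR = 0.0573). Pcdh9 was higher in PVN than in ARC (0.33 ± 0.10) and NTS (0.31 ± 0.09), and Pcdh1 passed in no contrast of vehicle mice, with levels of 86.0 to 151 CPM in all vehicle libraries. In IP118/PY115 mice Pcdh1 passed for PVN over ARC (0.20 ± 0.07, FDR = 0.0123) and for ARC over NTS (-0.27 ± 0.07, FDR = 0.000575). The Pcdh7 exons overlap 2235 bases of a gene on the other strand, and the strand setting of the counting is not given in the sources used here.

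**Figure D3:**
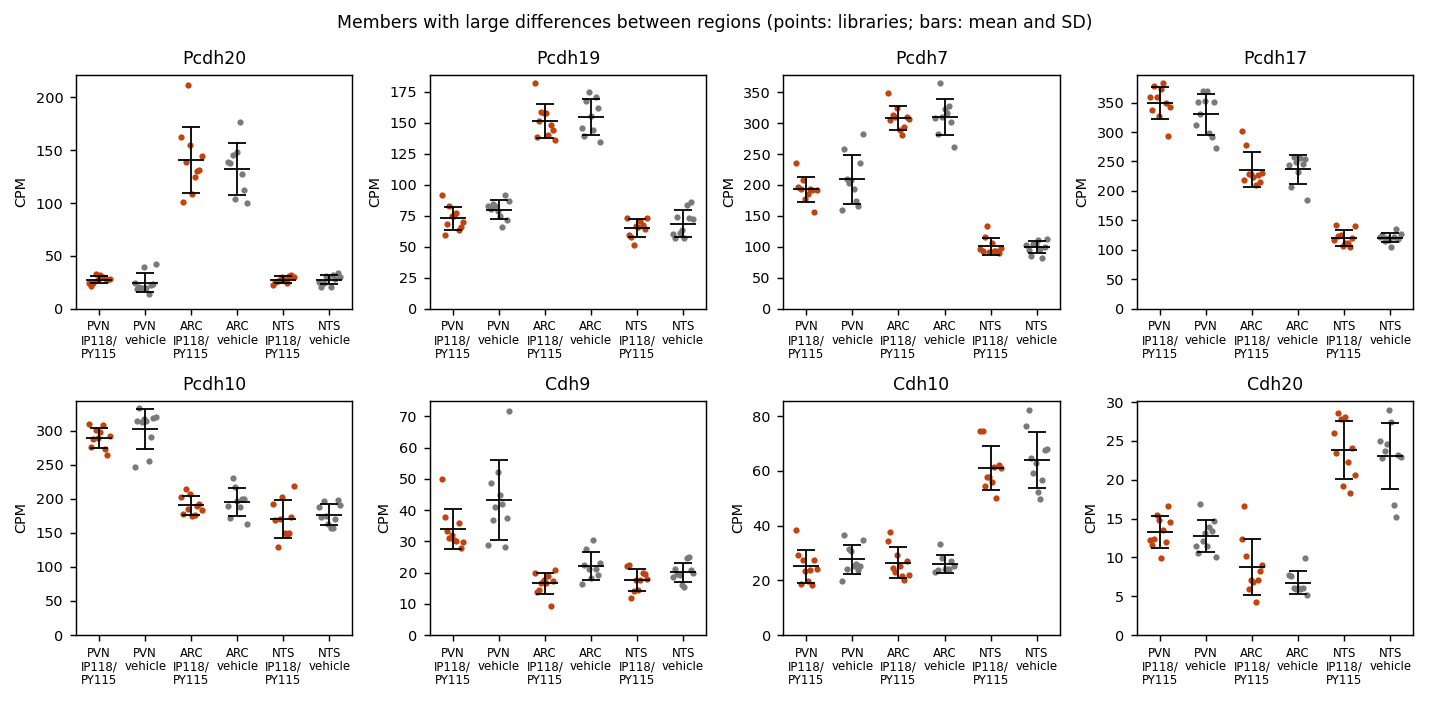
CPM of Pcdh20, Pcdh19, Pcdh7, Pcdh17, Pcdh10, Cdh9, Cdh10 and Cdh20 in every library, by region and treatment, with mean and SD. Vehicle Pcdh20 in ARC sits at 99.9 to 177 CPM, above every PVN and NTS library, and vehicle Cdh10 in NTS at 49.7 to 82.3 CPM, above every PVN and ARC library.

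Of the 13 type II classical cadherins, which sort neurons and shape circuits, 7 differed between PVN and ARC, 10 between PVN and NTS and 11 between ARC and NTS, beside 46, 56.1 and 61.7% of all genes. Cdh10 stood at 19.6, 25.5 and 36.4 CPM in vehicle PVN libraries, 23, 24.3 and 33.1 CPM in ARC libraries and 49.7, 63.6 and 82.3 CPM in NTS libraries. NTS lay above both others without overlap (-1.21 ± 0.11 for PVN over NTS, -1.30 ± 0.11 for ARC over NTS). Cdh20 stood at 10.1, 12.6 and 16.8 CPM in PVN libraries, 5.11, 6.04 and 9.95 CPM in ARC libraries and 15.2, 23.4 and 28.9 CPM in NTS libraries, so that ARC lay below both others without overlap. Its log2 differences were 0.91 ± 0.15 for PVN over ARC and -1.77 ± 0.15 for ARC over NTS, and the PVN over NTS value of -0.87 ± 0.14 became -0.21 ± 0.13 (FDR = 0.175) with the oligodendrocyte score as a covariate.

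Cdh7 also was lowest in ARC, with 20.3, 28.1 and 34 CPM in PVN libraries, 6.45, 8.40 and 12.6 CPM in ARC libraries and 20.5, 27.9 and 30.4 CPM in NTS libraries. ARC lay below both without overlap (1.67 ± 0.15 for PVN over ARC, -1.59 ± 0.15 for ARC over NTS), and PVN over NTS did not pass (0.07 ± 0.13, FDR = 0.656). Cdh8, which marks sensory and thalamic circuits, was lowest in NTS, with 24.1, 29.1 and 36.4 CPM in PVN libraries, 30.4, 37.3 and 46.5 CPM in ARC libraries and 12.9, 15.7 and 18.3 CPM in NTS libraries. NTS lay below both without overlap (0.87 ± 0.10 for PVN over NTS, 1.23 ± 0.10 for ARC over NTS). Cdh9 was highest in PVN, at 28.3, 41.5 and 71.8 CPM, against 16.2, 21.2 and 30.3 CPM in ARC and 15.4, 19.6 and 25 CPM in NTS. Its PVN libraries overlapped those of ARC and not those of NTS (0.96 ± 0.13 and 1.12 ± 0.13).

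Cdh19 was the type II cadherin of largest difference between PVN and NTS. It stood at 1.61, 4.12 and 7.82 CPM in PVN libraries, 3.23, 4.28 and 6.6 CPM in ARC libraries and 8.26, 11.6 and 15.2 CPM in NTS libraries, and NTS lay above both without overlap (-1.50 ± 0.19 and -1.42 ± 0.20). Cdh24 was lower in PVN than in ARC (-0.94 ± 0.21) and higher in ARC than in NTS (0.59 ± 0.20). Cdh6 was higher in PVN than in ARC (0.66 ± 0.24, FDR = 0.0188) and lower in ARC than in NTS (-1.0 ± 0.23, FDR = 0.000167), and both calls were lost with the oligodendrocyte score as a covariate (FDR = 0.0629 and 0.235). Without the 6 libraries numbered 1 the PVN over ARC value of Cdh6 was 0.54 ± 0.24 (FDR = 0.0657). Cdh18 and Cdh22 were higher in PVN than in NTS (0.41 ± 0.08 and 0.33 ± 0.08) and higher in ARC than in NTS (0.44 ± 0.08 and 0.43 ± 0.08). Cdh11 was also higher in both hypothalamic regions than in NTS (0.35 ± 0.10 and 0.41 ± 0.10), and Cdh12 was higher in PVN than in NTS (0.42 ± 0.17, FDR = 0.0308).

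Of 4 tested type I cadherins, 1 was called between PVN and ARC, 3 between PVN and NTS and 3 between ARC and NTS. Of all genes 46, 56.1 and 61.7% were called. Both counts against NTS include Cdh3, which reached the filter on low counts only through NTS, where it is high. Cdh2 stood at 93.0, 132 and 153 CPM in vehicle PVN libraries, 107, 127 and 147 CPM in ARC libraries and 130, 142 and 168 CPM in NTS libraries. PVN and ARC did not differ detectably (0.00 ± 0.07), and both were lower than NTS by small amounts (-0.18 ± 0.07 and -0.19 ± 0.07). Cdh4, or R-cadherin, was higher in PVN than in ARC (0.26 ± 0.07) and NTS (0.73 ± 0.07) and higher in ARC than in NTS (0.48 ± 0.07). Cdh3 had 9 counts in 10 vehicle PVN libraries, 7 in 9 ARC libraries and 373 in 10 NTS libraries, where it stood at 0.759, 2.57 and 6.63 CPM. Cdh3 failed the filter within PVN and within ARC, so these levels are a description, and its calls are not read as a result. Every NTS library lay above every PVN and ARC library. Of 4 meningeal fibroblast markers (Dcn, Col1a1, Col1a2 and Lum), 3 were lower in PVN than in NTS, and in ARC 2 were higher and 1 lower than in NTS. Their sum ran from 19.8 to 32.8 CPM in vehicle PVN libraries, 21.9 to 123 CPM in ARC libraries and 99.0 to 150 CPM in NTS libraries, and its part in the Cdh3 levels was not tested.

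Cdh13, or T-cadherin, a lipid-anchored cadherin that binds adiponectin, stood at 115, 144 and 179 CPM in vehicle PVN libraries, 85.0, 105 and 125 CPM in ARC libraries and 114, 144 and 166 CPM in NTS libraries. It was higher in PVN than in ARC (0.48 ± 0.08) and lower in ARC than in NTS (-0.40 ± 0.08), while PVN and NTS did not differ detectably (0.07 ± 0.08, FDR = 0.447). Cdh23 and Pcdh15, which form the tip links of hair cells together, did not share a regional order. Cdh23 was lower in PVN than in NTS (-1.21 ± 0.41) and lower in ARC than in NTS (-1.50 ± 0.42), and Pcdh15 was higher in PVN than in ARC (0.49 ± 0.11) and NTS (0.39 ± 0.11). In IP118/PY115 mice Cdh23 stood at 24.4 CPM in ARC replicate 2, the library high in oligodendrocyte markers, against 0.882 to 1.93 CPM in the other ARC libraries of that treatment. Its PVN over ARC difference in those mice was -0.95 ± 0.40 (FDR = 0.0433) with that library and 0.44 ± 0.25 (FDR = 0.141) without it.

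Of the endothelial members, Cdh5 was highest in PVN. Cdh5, or VE-cadherin, the adherens junction cadherin of blood vessels, stood at 12.8, 22 and 26.8 CPM in vehicle PVN libraries, 4.08, 5.61 and 6.95 CPM in ARC libraries and 5.59, 10.4 and 13.8 CPM in NTS libraries. Pcdh12, an endothelial protocadherin, stood at 1.28, 3.02 and 4.40 CPM in PVN libraries, 0.00, 0.204 and 1.73 CPM in ARC libraries and 0.00, 0.670 and 1.05 CPM in NTS libraries. Pcdh12 failed the filter within ARC and within NTS, so its levels are a description, with no test. PVN lay above ARC without overlap for Cdh5. Log2 differences of Cdh5 were 2.04 ± 0.19 for PVN over ARC, 1.02 ± 0.17 for PVN over NTS and -1.01 ± 0.19 for ARC over NTS. With the oligodendrocyte score as a covariate, the ARC over NTS difference of Cdh5 became 0.06 (FDR = 0.863). That score cannot be told apart from region in this contrast.

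Other endothelial genes moved with Cdh5. All 6 endothelial markers (Cldn5, Pecam1, Flt1, Tie1, Slco1a4 and Emcn) were higher in PVN than in ARC and NTS and lower in ARC than in NTS. Their sums ran from 288 to 435 CPM in vehicle PVN libraries, 71.4 to 105 CPM in ARC libraries and 139 to 207 CPM in NTS libraries, with a median log2 difference of 2.10 for PVN over ARC. All 4 mural cell markers were higher in PVN than in ARC, 1 was higher in PVN than in NTS and 3 were lower in ARC than in NTS. Their sum, for the cells that wrap vessels, ran from 206 to 331 CPM in PVN, 67.4 to 115 CPM in ARC and 100.2 to 161 CPM in NTS. The part of vessel content in the Cdh5 and Pcdh12 values was not tested. Cdh5 did not pass for treatment in any region, nor Pcdh12 in PVN, and endothelial sums had medians of 335 CPM in IP118/PY115 PVN libraries and 363 CPM in vehicle PVN libraries.

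**Figure D4:**
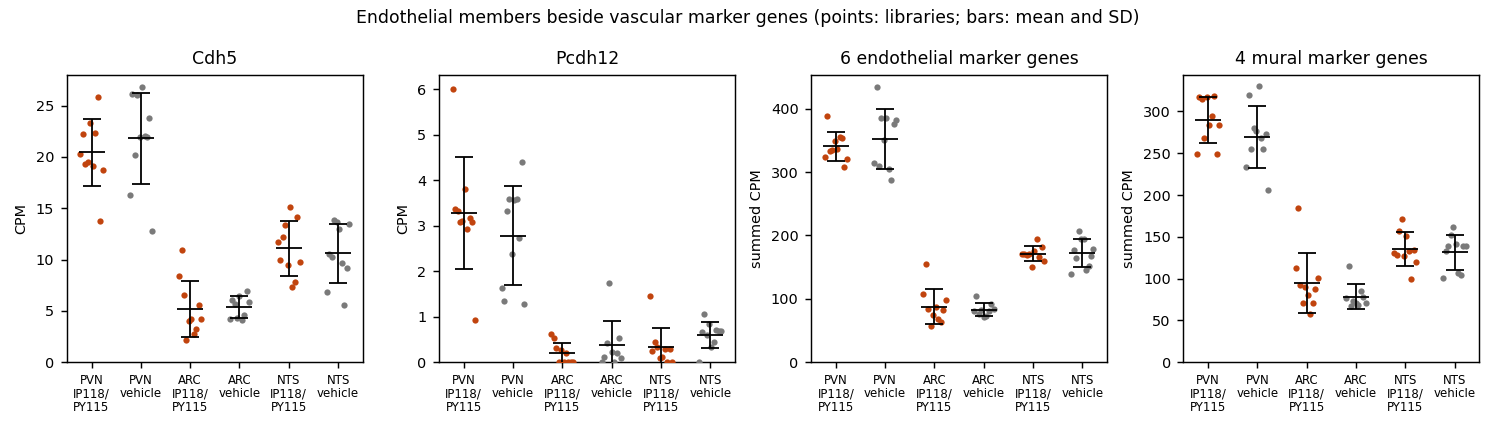
CPM of Cdh5 and Pcdh12, and summed CPM of 6 endothelial and 4 mural marker genes, in every library by region and treatment, with mean and SD. All 4 panels are highest in PVN, where vehicle endothelial sums run from 288 to 435 CPM, against at most 105 CPM in vehicle ARC libraries and 207 CPM in vehicle NTS libraries.

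On chromosome 18 (GRCm38) the 14 alpha genes span 36930184 to 37187661, the 22 beta genes 37264938 to 37524479 and the 21 gamma genes 37661793 to 37841873. Alpha and gamma genes share constant exons, with 38.9 to 91.4% of an alpha gene's exon bases and 31.5 to 66.8% of a gamma gene's also belonging to another gene, while 20 of 22 beta genes share none. How the authors' counting divided reads on shared exons is not given in the sources used here, so the values of single alpha and gamma genes are uncertain. At least 1 read was counted for 54 to 57 of the 57 genes in each library, and 46 to 55 genes reached 1 CPM.

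Beta genes were lower in PVN. In vehicle mice 10 of 22 were lower in PVN than in ARC and 0 higher, beside 21.1% and 24.8% of all genes. Another contrast, PVN over NTS, had 11 lower and 1 higher, beside 27.8% and 28.3% of all genes. The median log2 difference of all 22 was -0.41 for PVN over ARC and -0.37 for PVN over NTS, where all genes stood at 0.01 and 0.00. Between ARC and NTS 6 were higher in ARC and 4 lower, beside 30.2% and 31.5% of all genes. Pcdhb1, which reached the filter on low counts only through ARC, is among those lower in PVN than in ARC. It is also among those higher in ARC than in NTS. Without the 4 libraries low in gamma members the counts were 11 lower and 0 higher for PVN over ARC and 11 lower and 1 higher for PVN over NTS. Scaling by library totals alone, which moved the median of all genes to -0.055 for PVN over ARC, gave 12 lower in that contrast. The oligodendrocyte score as a covariate gave 9, with 7 lower for PVN over NTS.

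Summed over the cluster, beta levels had a median of 110 CPM (lowest 95.4, highest 117) in vehicle PVN libraries, 141 CPM (119 to 160) in ARC libraries and 141 CPM (125 to 160) in NTS libraries. No vehicle PVN library reached the lowest ARC or NTS library. Pcdhb17 had the highest mean CPM of the cluster, a value that is not per length, with 6.07, 9.39 and 12.8 CPM in PVN libraries, 11.4, 15 and 19.6 CPM in ARC libraries and 14.5, 17.6 and 20.9 CPM in NTS libraries. It was lower in PVN than in ARC (-0.69 ± 0.10, FDR = 2.85e-08) and NTS (-0.89 ± 0.10, FDR = 3.91e-12), and only the NTS libraries lay apart from those of PVN. Pcdhb3 (-0.79 ± 0.15 and -0.85 ± 0.14) and Pcdhb10 (-1.06 ± 0.17 and -0.61 ± 0.16) also were lower in PVN in both contrasts. Pcdhb7 was lower in PVN than in ARC (-0.76 ± 0.15), and Pcdhb20 was lower in PVN than in NTS (-0.50 ± 0.11).

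Pcdhb12 was the exception within the cluster, being higher in PVN than in NTS. It stood at 4.86, 5.76 and 8.55 CPM in PVN libraries, 7.24, 9.48 and 14 CPM in ARC libraries and 2.95, 4.49 and 6.32 CPM in NTS libraries. Log2 differences were -0.64 ± 0.14 for PVN over ARC, 0.41 ± 0.14 for PVN over NTS and 1.05 ± 0.14 for ARC over NTS, and ARC and NTS did not overlap. Of its 3034 exon bases, 1927 overlap a gene on the other strand, and with the strand setting of the counting not given its reads and those of that gene cannot be told apart. Pcdhb4 was higher in ARC than in NTS (1.04 ± 0.25). Pcdhb1, which failed the filter within PVN and within NTS, had 105 counts in 9 ARC libraries and 34 in 10 NTS libraries.

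Between PVN and ARC in vehicle mice, 6 of 21 gamma genes were higher in PVN and 0 lower, and 4 of 13 tested alpha genes were higher and 0 lower. Their called shares of 28.6 and 30.8% stood near the 24.8% of all genes that were higher. Without the 4 libraries low in gamma members, which are NTS libraries and enter this contrast through the shared estimate of the spread, 10 gamma genes were higher and 1 lower. Scaling by library totals alone, which moved the median of all genes to -0.055, left 4 gamma genes higher and 1 lower and 1 alpha gene higher. The oligodendrocyte score as a covariate left 3 gamma genes and 1 alpha gene higher. Pcdhga12 was higher in PVN than in ARC (0.67 ± 0.20) and NTS (0.58 ± 0.20), and Pcdhga1 was higher in PVN than in ARC (0.81 ± 0.25). Among alpha genes Pcdha12 was higher in PVN than in ARC (0.66 ± 0.18) and NTS (0.73 ± 0.18).

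Against NTS the gamma and alpha genes went in both directions. Between PVN and NTS 5 gamma genes were higher and 1 lower and 3 alpha genes higher and 2 lower. These shares of 28.6 and 38.5% were below the 56.1% of all genes. Without the 4 low libraries 5 gamma genes were higher and 3 lower and 2 alpha genes higher and 1 lower, beside 55.7% of all genes. Between ARC and NTS 2 gamma genes were higher and 5 lower and 4 alpha genes lower. These shares of 33.3 and 30.8% were below the 61.7% of all genes. The alpha genes lower than in NTS include Pcdha1 in both contrasts, which reached the filter on low counts only through NTS. Without the 4 low libraries 2 gamma genes were higher and 8 lower and 6 alpha genes lower, beside 62.2% of all genes. With the oligodendrocyte score as a covariate the ARC over NTS calls turned to 3 gamma genes higher and 0 lower and 1 alpha gene higher and 0 lower. Of all genes 38.3% were called with that covariate. Gamma sums had medians of 267 CPM in vehicle PVN libraries, 241 CPM in ARC libraries and 249 CPM in NTS libraries, with lowest values of 198, 151 and 87.8 CPM, and all 3 groups overlapped.

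The C-type genes at the end of the gamma cluster differed from each other. Pcdhgc4, the isoform that mice need for neuron survival, stood at 28.9, 44 and 51.1 CPM in vehicle PVN libraries, 37.9, 51.3 and 71.5 CPM in ARC libraries and 13.8, 30.4 and 36.8 CPM in NTS libraries. It was higher in PVN than in NTS (0.57 ± 0.14, or 0.46 ± 0.12 without the 4 low libraries) and higher in ARC than in NTS (0.86 ± 0.14, or 0.75 ± 0.12), and ARC and NTS did not overlap. Pcdhgc3, known to promote dendrite growth, has 1559 of its 5499 exon bases under a gene on the other strand. It stood at 23.9, 34.9 and 38.4 CPM in PVN libraries, 18.7, 24.4 and 41.2 CPM in ARC libraries and 16, 45.2 and 51.3 CPM in NTS libraries. It was lower in ARC than in NTS (-0.60 ± 0.18), and the PVN over NTS difference did not pass (-0.35 ± 0.17, FDR = 0.0828). Without the 4 low libraries that difference was -0.51 ± 0.11. They were picked for low gamma levels, so no test is read from this value. Pcdhgb7 was lower in PVN and in ARC than in NTS (-0.76 ± 0.20 and -0.78 ± 0.21), calls that were lost with the oligodendrocyte score as a covariate (FDR = 0.232 and 0.475), and Pcdhgb2 was higher in PVN than in NTS (0.63 ± 0.22). In the alpha cluster Pcdhac2, known from serotonin axons, had the highest mean CPM, with 14.8, 23 and 25.8 CPM in PVN libraries, 14.1, 19.1 and 26.8 CPM in ARC libraries and 6.30, 17.8 and 21.8 CPM in NTS libraries.

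As shares of all clustered counts, beta genes made up a median of 25% in IP118/PY115 PVN libraries and 25.5% in vehicle PVN libraries. The same shares were 34.5% and 32.5% in ARC and 33.5% and 32% in NTS. The highest beta shares, 55.6% among IP118/PY115 NTS libraries and 53.4% among vehicle NTS libraries, belonged to libraries low in gamma members. Treatment moved no clustered gene past the test in any region. In ARC 13 of 54 tested clustered genes had a positive and 41 a negative log2 fold change, with a median of -0.12, where all genes stood at 0.00, and in NTS 15 were positive and 39 negative with a median of -0.06. Without the 4 low libraries the NTS median was -0.03.

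**Figure D5:**
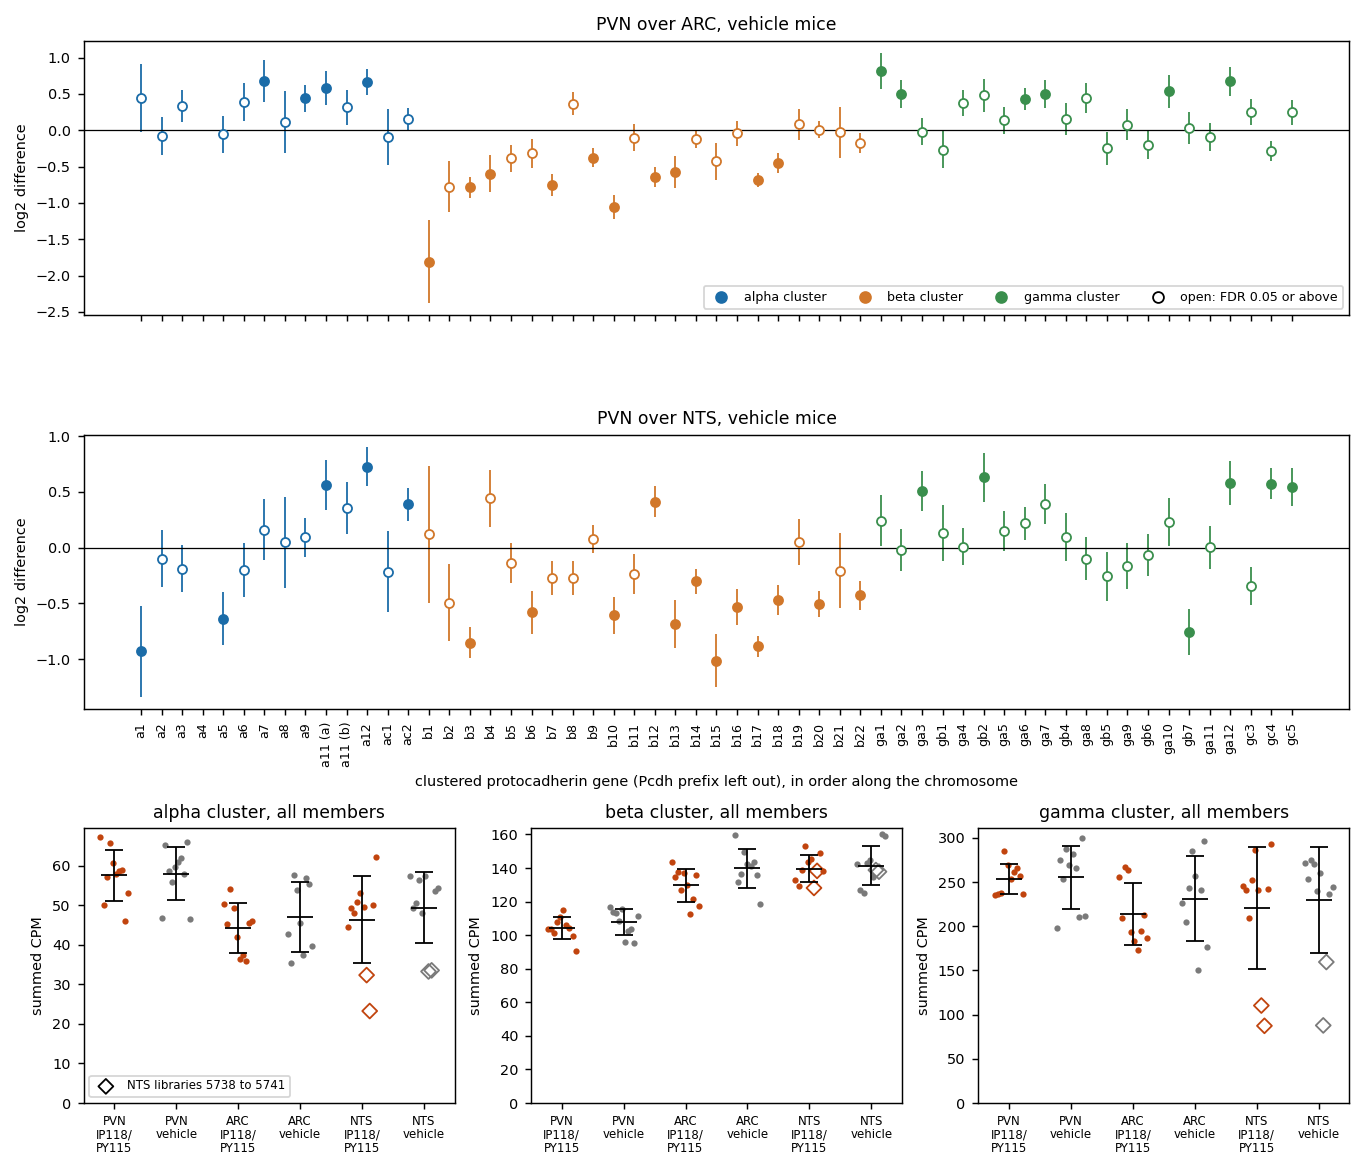
The upper panels give the log2 difference ± SE of each clustered protocadherin for PVN over ARC and PVN over NTS in vehicle mice, in chromosome order, with filled points past FDR 0.05; the lower panels give summed CPM of each cluster in every library with mean and SD. Beta genes lie mostly below 0 in both contrasts, and NTS libraries 5738 to 5741, drawn as diamonds, are low for gamma and alpha sums but not for beta sums.

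The region differences recurred in IP118/PY115 mice, whose libraries are separate from the vehicle ones but share the estimate of the spread. There 45 members differed between PVN and ARC (28 higher, 17 lower), beside 48.7% of all genes (24.7% higher, 24.1% lower). Between PVN and NTS 46 differed (22 higher, 24 lower), beside 58.8% (27.8% higher, 31% lower), and between ARC and NTS 40 (16 higher, 24 lower), beside 63.8% (30.7% higher, 33.1% lower). Called in both treatments with the same direction were 33, 38 and 35 members, which are 73.3, 82.6 and 87.5% of the IP118/PY115 calls and 84.6, 82.6 and 79.5% of the vehicle calls. The matching shares of all genes were not computed, so this recurrence is not read as a trait of the members. Pcdh20 was again lower in PVN than in ARC (-2.35 ± 0.13) and higher in ARC than in NTS (2.35 ± 0.13). Its levels in these mice were 21.6, 27.8 and 32.5 CPM in PVN libraries, 101, 135 and 212 CPM in ARC libraries and 22.3, 27.3 and 32 CPM in NTS libraries, again with ARC apart. Pcdh17 (1.54 ± 0.06) and Pcdh7 (0.93 ± 0.08) were again higher in PVN than in NTS and Cdh10 lower (-1.28 ± 0.11). Beta genes gave 10 lower and 0 higher for PVN over ARC and 12 lower and 1 higher for PVN over NTS, and gamma genes gave 10 higher and 0 lower for PVN over ARC.

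Partners of the cadherins were described from lists of catenins, other cadherin superfamily genes, the WAVE complex, kinases and cleaving enzymes of cadherins, and factors of cluster promoter choice. In no region did a listed gene pass for treatment. The region counts of these lists stand beside 46, 56.1 and 61.7% of all genes called for PVN over ARC, PVN over NTS and ARC over NTS. Of 9 catenins and cytoplasmic partners, 5 were higher and 1 lower in vehicle PVN than ARC, 1 higher and 6 lower in PVN than NTS, and 1 higher and 6 lower in ARC than NTS. Ctnna3, an alpha-catenin best known from heart, was lower in ARC than in NTS (-2.31 ± 0.38), as was Ctnna1, the alpha-catenin found in most tissues (-0.74 ± 0.08), and Jup, or plakoglobin, which links cadherins of adherens junctions and desmosomes (-0.60 ± 0.10).

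Of 17 tested other superfamily genes, 9 were higher and 3 lower in PVN than ARC, 7 higher and 6 lower in PVN than NTS, and 6 higher and 6 lower in ARC than NTS. Fat1, a giant atypical cadherin, was higher in PVN than in ARC (1.90 ± 0.10) and NTS (0.96 ± 0.10), and the planar polarity cadherin Celsr1 was higher in PVN than in ARC (2.14 ± 0.19) and lower in ARC than in NTS (-1.95 ± 0.19). Cdhr2 was lower in PVN than in ARC (-1.99 ± 0.18). The WAVE complex, bound by delta-2 protocadherins, had 3 genes higher and 1 lower of 9 in PVN than ARC, 1 higher and 3 lower in PVN than NTS, and 3 higher and 5 lower in ARC than NTS. Cyfip1 and Wasf3 were lower in ARC than in NTS (-0.62 ± 0.09 and -0.51 ± 0.07), and Wasf1 was lower in PVN than in ARC (-0.49 ± 0.07). Of 12 genes of cluster promoter choice, which includes the loop factor Ctcf and cohesin, 2 were higher and 1 lower in PVN than ARC, 6 higher and 2 lower in PVN than NTS, and 5 higher in ARC than NTS. The cohesin subunit Stag2 was higher in PVN than in NTS (0.50 ± 0.09), and the cohesin loader Nipbl and the silencing factor Smchd1 were higher in ARC than in NTS (0.42 ± 0.07 and 0.40 ± 0.08). Of the kinases Ptk2 and Ptk2b, Ptk2 was lower in PVN and in ARC than in NTS (-0.18 ± 0.05 and -0.24 ± 0.05). The cleaving enzyme Adam10 was lower in PVN than in ARC (-0.24 ± 0.06) and higher in PVN and in ARC than in NTS (0.25 ± 0.06 and 0.49 ± 0.06).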

How the data were processed

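RNA was measured in 59 laser-captured libraries. Per the submitters' processing notes, bcl2fastq 2.20.0.422 and STAR 2.5.2a were used with the GRCm38 genome. The deposited table holds the authors' whole-number read counts for 21935 Ensembl gene IDs. The counter, its strand setting and its annotation are not given in the sources used here. Symbols, coordinates and exon bases came from GENCODE M21 on GRCm38, which matched 21858 IDs and all 92 members.

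Counts were tested with edgeR 4.0.16 (R 4.3.3), using TMM scaling, filterByExpr (minimum count 10, minimum total 15) and a robust quasi-likelihood F test, two-sided, with Benjamini-Hochberg adjustment over all tested genes at 0.05. Treatment was fitted within each region, and regions and their interaction with treatment in 1 fit of 59 libraries. The SE is the absolute log2 fold change divided by the square root of F. CPM values use TMM scaling over all libraries, and total counts, given with the results, set the precision. No pair of libraries was identical. The labels do not state which libraries share an animal, so libraries were treated as independent, and p-values measure the spread between them.

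Alternatives were DESeq2 1.42.0, limma-voom 3.58.1 with quality weights, RLE scaling, scaling by totals, dropping the filter, requiring 20 counts in 9 libraries, log10 library total or an oligodendrocyte score as covariate, a 1.5-fold test, leaving out each library, and leaving out the libraries numbered 1 or 5553 to 5557. Leaving out NTS libraries 5738 to 5741 or ARC library 5512, and a replicate block by place in the run of library numbers, were chosen after seeing the data. The tests were checked on simulated data.

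Members and lists were chosen with earlier results of these data known. The genes given with values were those called for treatment or else the 6 of smallest p per region, the 8 largest called differences per region contrast and direction with a mean of at least 5 CPM, the 8 highest per length in each region, the highest of each role, the 3 of smallest p for interaction, Cdh1, Cdh2, Cdh5 and Cdh13, and up to 3 per partner list. The other members named were chosen after their values were seen. Promoter sequences came from RefSeq on GRCm38.p6, with windows for 22 of the 32 members outside chromosome 18.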

Additional observations from a re-analysis of the deposited data

Results flagged for a closer look

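The gap of 1 library to its nearest neighbour was set against the range of its group in 251 groups over 42 members, and 17 lay beyond the 95% limit of Dixon's test. Chance gives about 1 group in 20. The first set were libraries numbered 1. Among IP118/PY115 PVN libraries, replicate 1 was the highest for Cdh9 at 49.9 CPM and for Cdh7 at 37 CPM. Among vehicle PVN libraries, replicate 1 was the highest for Cdh6 at 9.57 CPM and the lowest for Pcdh1 at 86.0 CPM. Among IP118/PY115 ARC libraries, replicate 1 was the highest for Pcdh19 at 182 CPM.

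IP118/PY115 ARC replicate 2, the library with the highest oligodendrocyte marker sum in ARC, was the highest of its group for Cdh24 at 32.6 CPM, Cdh7 at 22.2 CPM, Pcdh18 at 17.4 CPM and Cdh19 at 14.2 CPM. IP118/PY115 PVN replicate 9 was the highest for Pcdhb17 at 13.2 CPM and Cdh24 at 11.4 CPM and the lowest for Cdh8 at 23.9 CPM. The others were single values. Vehicle NTS replicate 7, one of the 4 libraries low in gamma members, was the lowest for Cdh22 at 36.4 CPM. Vehicle PVN libraries were highest for Pcdha6 in replicate 2 at 5.19 CPM, for Pcdhb7 in replicate 10 at 7.68 CPM and for Cdh3 in replicate 5 at 0.412 CPM, and vehicle ARC replicate 5 was highest for Pcdhb12 at 14 CPM.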

How the results depend on the processing

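The 1 member called for treatment in PVN became 4 with limma-voom, which called 3.79% of all genes, and 5 without both libraries numbered 1, and 0 with log10 library total or the oligodendrocyte score as a covariate or without libraries 5553 to 5557. With the oligodendrocyte score 0.0597% of all genes were called in PVN, against 0.656% in the main fit. Leaving out 1 library gave 0 to 2 members in PVN, 0 to 0 in ARC and 0 to 0 in NTS. The 0 members called in ARC became 1 without both libraries numbered 1. Tested against a 1.5-fold difference, the region counts in IP118/PY115 mice were 10 for PVN over ARC, 14 for PVN over NTS and 15 for ARC over NTS, and in vehicle mice 9, 13 and 16. It called 11.4, 14.4 and 17.9% of all genes in IP118/PY115 mice and 11, 13.2 and 18% in vehicle mice. That test asks for larger differences by construction. With the oligodendrocyte score as a covariate, 28 members were called for ARC over NTS in vehicle mice, and Cdh5 stood at 0.055 in that contrast, against -1.01 without the covariate. The score cannot be told apart from region there, and for these other settings the cause was not tested. Of the values for the members named by rule, region differences kept direction and side of the threshold in 550 cases, lost the call in 25 and reversed in 1. Treatment values of the members named for treatment kept them in 369, lost the call in 14, all for Cdh6, and gained it in 1. Leaving out NTS libraries 5738 to 5741 or ARC library 5512 moved no count over all members by over 1.5 times, but without 5738 to 5741 gamma genes higher in PVN than in ARC became 10 of 21, against 6. The library numbers run in parallel in the regions, with the same treatment at every shared place, except 5553 to 5557. Of 15, 17 and 17 same-place pairs (PVN with ARC, PVN with NTS, ARC with NTS), 3, 2 and 4 had deviations from the group means correlated above 0.1, and 5, 4 and 5 correlated best with their own place. Median correlations were 0.0217, 0.0221 and 0.0706 at the same place, against -0.00329, 0.0011 and -0.00625 at other places. These values do not settle whether a place in the run marks a shared animal. The main fit therefore has no block, and a fit with one is given beside it. With that place as a replicate block over 54 libraries, 34, 46 and 36 members were called in vehicle mice and 44, 48 and 43 in IP118/PY115 mice. Of all genes 39.6, 52.9 and 59.8% and 50.7, 60.4 and 65.6% were called. Without the block these libraries gave 36, 45 and 42 and 43, 46 and 40 members. The shares of all genes were then 43.7, 55 and 62.2% and 50.9, 60.5 and 65.4%. With the block 0 members differed between regions in treatment effect, beside 0.0, 0.0345 and 0.0% of all genes. Depth limits the lowest members, of which 5 could not be tested between regions.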
